A study of Mus musculus with 6 samples.

Results

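Isocitrate dehydrogenases and the enzymes that carry glutamine carbon into and out of 2-oxoglutarate were examined in cultured mouse melanoma cells labelled KMT2D WT (3 libraries) and KMT2D KO (3 libraries). The set holds 9 genes, chosen by name from the 24391 genes counted in every library: Idh1, Idh2, Idh3a, Idh3b, Idh3g, Glud1, Glul, Got1 and Got2. All 9 passed the low-count filter, with between 1767 and 23014 counts per gene and library. The question was how their RNA levels differed between the labelled groups.

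The tumours arose on the ears of iBIP mice, a melanoma model on a mixed FVB and B6 background. These mice carry a tamoxifen-activated Cre under the Tyr promoter (Tyr-CreERT2), Rosa26-rtTA, a doxycycline-driven TetO-BRAFV600E transgene, and floxed alleles that include Ink/Arf, and both groups share these alleles. The animals received doxycycline, and 4-OHT at 1 µM was applied to the ears. KMT2D WT cells were isolated from mice with intact Kmt2d (KMT2D+/+), and KMT2D KO cells from mice with floxed alleles (KMT2DL/L). The cells were grown in high-glucose DMEM with GlutaMAX, a stabilised glutamine source. Kmt2d encodes a histone H3 lysine 4 methyltransferase. Nothing in the labels states whether libraries within a group are separate cultures, tumours or animals. The p-values thus measure only library-to-library spread, possibly technical, and the Kmt2d genotype cannot be told apart from other differences between the tumours of origin.

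Libraries held 43168605 to 59360068 counts (KMT2D WT) and 55594979 to 79718782 counts (KMT2D KO). Kmt2d itself gave 79.6, 87.6 and 101 CPM (counts relative to the scaled library size) in KMT2D WT and 72.9, 69.3 and 79.8 CPM in KMT2D KO, so the groups overlapped (log2 fold change -0.27, edgeR adjusted p = 0.0075). Without KMT2D KO replicate 2 Kmt2d was no longer called (-0.21, adjusted p = 0.058), and a gene total gives no reading of the floxed part alone. Of the 10 melanocyte markers, 7 stayed under a mean of 1 CPM in both groups, and Tyr, Dct, Kit and Sox10 were at or below 0.517 CPM in every library. The most abundant were Gpnmb (means of 425 CPM in WT and 617 CPM in KO, an order kept for all markers, log2 fold change 0.54) and Mitf, the melanocyte master regulator (15.4 and 53.2 CPM, 1.79). The list summed to 397 to 492 CPM in the WT libraries and 658 to 692 CPM in the KO libraries. Of its 5 tested markers 3 were called higher, 0 lower and 2 not called. Of all tested genes, 71.0% were called (edgeR adjusted p under 0.05), 35.4% higher and 35.5% lower in KMT2D KO.

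Markers of other cell types were read in the same way. Their calls, too, stand beside 71.0% of all tested genes called, 35.4% higher and 35.5% lower. The 10 fibroblast markers summed to 5806 to 6020 CPM in KMT2D WT and to 21590 to 22610 CPM in KMT2D KO, with 7 higher and 3 lower. The sums were led by the collagen genes Col1a2 (2807 and 9383 CPM), Col1a1 (1283 and 3313 CPM) and Col3a1 (836 and 7659 CPM). The 3 lower markers were Dpt (44.8 and 0.838 CPM, log2 fold change -5.69), Thy1 (14.8 and 4.87 CPM, -1.60) and Lum (1.30 and 0.527 CPM, -1.29). The 10 immune cell markers summed to 12.5 to 21.0 and to 5.26 to 5.75 CPM, with 5 of 7 tested lower and 0 higher, led by Cd68 (9.03 and 2.21 CPM) and Lyz2 (3.05 and 1.54 CPM). The 8 keratinocyte markers summed to 19.6 to 23.1 and to 70.6 to 77.5 CPM, with 2 higher (Perp, 7.69 and 57.5 CPM, and Trp63, 0.783 and 10.2 CPM), 1 lower (Dsp) and 5 not called, among them Krt5 and Krt14. The 6 endothelial markers summed to 1.52 to 1.59 and to 0.700 to 0.847 CPM, with 1 of 2 tested lower (Pecam1, 0.613 and 0.211 CPM) and 1 not called (Erg, 0.390 and 0.291 CPM). The part of these markers in the results below was not tested. In bulk RNA, fewer cells of a type and less RNA per cell cannot be told apart.

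Isocitrate dehydrogenases turn isocitrate into 2-oxoglutarate. Idh1 (cytosol and peroxisomes) and Idh2 (mitochondria) are NADP-dependent and work in both directions, whereas the Idh3 enzyme of the tricarboxylic acid cycle is NAD-dependent, runs forward, and is built from the catalytic subunit Idh3a with Idh3b and Idh3g. Glutamine is deaminated to glutamate, and glutamate yields 2-oxoglutarate through glutamate dehydrogenase (Glud1) or through aminotransferases such as Got1 (cytosol) and Got2 (mitochondria), which exchange the amino group with aspartate. Glutamine synthetase (Glul) runs the opposite way, from glutamate and ammonia to glutamine. Many tumour cells in culture use glutamine as a main source of tricarboxylic acid cycle carbon.

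Of the 9 genes, 1 rose (Idh2), 5 fell (Glul, Got1, Idh3a, Glud1 and Idh3b) and 3 were not called (Idh1, Idh3g and Got2). A gene was called at an edgeR quasi-likelihood adjusted p under 0.05, with adjustment over all 14579 tested genes. This is 6 of 9 genes, where 71.0% of all tested genes were called, 35.4% higher and 35.5% lower in KMT2D KO. A called change above 1 on the log2 scale was seen in 2 of 9 genes (Idh2 and Glul) and in 26.8% of all tested genes. In 7 of the 9 genes the groups had no overlapping libraries, against 74.3% of all tested genes. Calls as such were thus about as frequent among the 9 genes as elsewhere, and the description below turns on the size and direction of each change. Their median log2 fold change (KMT2D KO minus KMT2D WT throughout) was -0.24, beside 0.0040 over all tested genes.

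**Figure D1:**
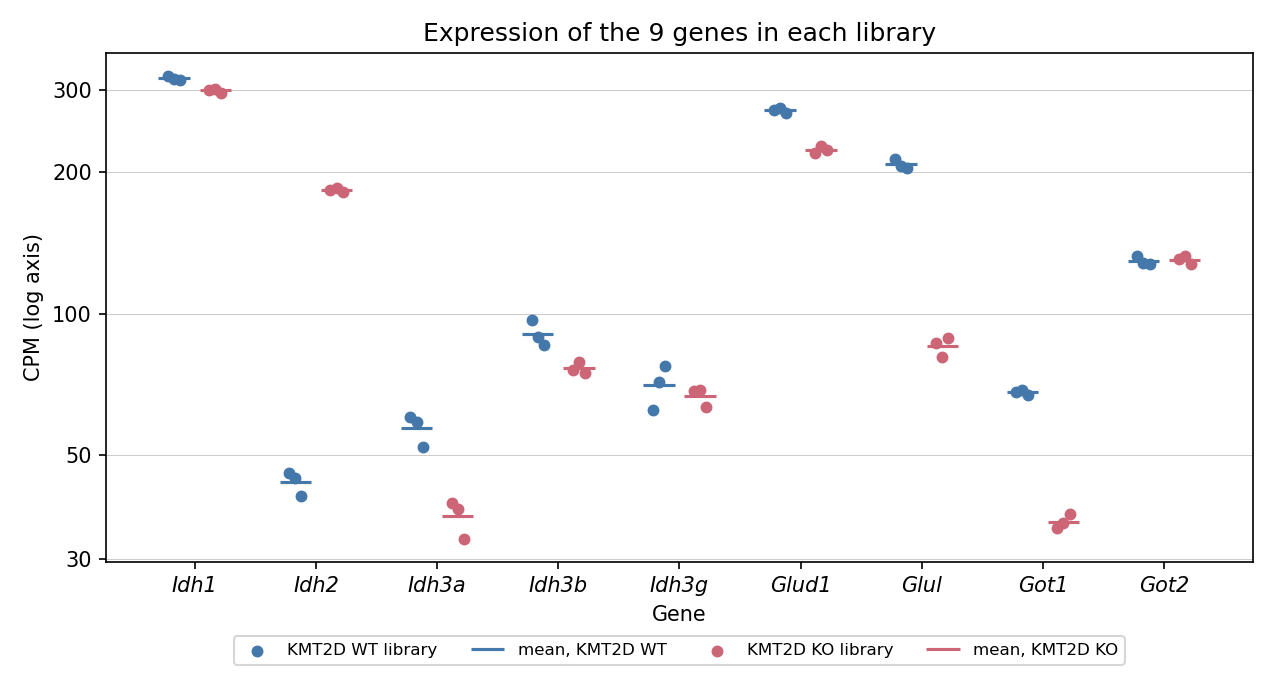
Expression of the 9 genes in CPM on a log axis, with 1 point per library (KMT2D WT blue, KMT2D KO red) and the group mean as a bar. Idh2 sits at 41.0 to 45.7 CPM in the KMT2D WT libraries and at 181 to 185 CPM in the KMT2D KO libraries, while Glul and Got1 are lower in all 3 KMT2D KO libraries.

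Idh2 (mm9 chromosome 7, 87239734 to 87260236, minus strand) was the gene that rose. Replicates 1, 2 and 3 of KMT2D WT gave 45.7, 44.7 and 41.0 CPM, and those of KMT2D KO gave 184, 185 and 181 CPM. Values by library follow this order throughout. Every KMT2D KO library lay above every KMT2D WT library, and the spread within each group was small beside the gap. Group means of 43.8 ± 2.52 and 183 ± 1.79 CPM (SD, n = 3) made a 4.19-fold difference (log2 fold change 2.07, SE 0.06, edgeR adjusted p = 1.7e-13). By absolute size this change exceeded that of 87.4% of tested genes. Idh2 stood apart from its surroundings: the median log2 fold change was 0.15 over chromosome 7 and 0.09 over its 40 nearest tested genes.

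The window of 250 bases before the Idh2 start is shown with those of Glul, Got1 and Got2, the genes with the largest falls and the compartment partner of Got1, to show the promoter DNA of these genes. Sequences are from RefSeq on GRCm38.p6, which is not the build of the counts, and are written 5′ to 3′ on the gene's strand. Capitals mark CCAAT boxes (CCAAT or ATTGG) and GC boxes (GGGCGG or CCGCCC), where they occur. The windows are chr7:80115351-80115600 (minus strand) for Idh2, chr1:153899679-153899928 (plus) for Glul, chr19:43524606-43524855 (minus) for Got1 and chr8:95888402-95888651 (minus) for Got2.
Idh2: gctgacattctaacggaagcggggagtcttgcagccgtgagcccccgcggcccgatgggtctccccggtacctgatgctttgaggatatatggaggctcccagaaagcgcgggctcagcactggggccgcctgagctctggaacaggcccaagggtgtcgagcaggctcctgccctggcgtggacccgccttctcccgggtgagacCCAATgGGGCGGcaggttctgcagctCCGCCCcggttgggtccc
Glul: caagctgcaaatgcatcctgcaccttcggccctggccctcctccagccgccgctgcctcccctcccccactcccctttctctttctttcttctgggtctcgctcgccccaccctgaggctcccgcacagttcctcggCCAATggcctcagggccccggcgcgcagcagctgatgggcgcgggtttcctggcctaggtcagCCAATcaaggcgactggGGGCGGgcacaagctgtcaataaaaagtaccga
Got1: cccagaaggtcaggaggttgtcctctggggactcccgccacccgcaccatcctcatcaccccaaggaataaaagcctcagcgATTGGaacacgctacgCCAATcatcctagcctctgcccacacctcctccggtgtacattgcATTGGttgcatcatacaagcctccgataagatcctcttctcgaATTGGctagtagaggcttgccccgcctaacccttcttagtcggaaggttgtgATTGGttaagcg
Got2: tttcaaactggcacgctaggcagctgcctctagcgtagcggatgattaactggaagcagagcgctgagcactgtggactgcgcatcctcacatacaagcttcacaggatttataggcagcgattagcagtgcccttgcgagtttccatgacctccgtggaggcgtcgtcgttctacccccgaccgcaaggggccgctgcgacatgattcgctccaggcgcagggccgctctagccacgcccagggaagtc

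The Idh2 window held 1 CCAAT box beside a GC box, and a further GC box nearer the start. The Glul window held 2 CCAAT boxes and 1 GC box, the Got1 window 5 CCAAT boxes and 0 GC boxes, and the Got2 window 0 of either. Over 32851 annotated mouse starts with a window of the same length, 33.8% held a CCAAT box and 32.7% a GC box on either strand. The palindrome CACGTG was in none of the windows of the members, beside 6.02% of all. Windows were found for 8 of the 9 genes (not Idh3a), with 2 starts for Idh1. These matches describe letters only, and no binding was measured.

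Idh1 (chromosome 1, 65205190 to 65233053), the cytosolic counterpart of Idh2, was close to level. It gave 320.4, 315 and 314 CPM in KMT2D WT and 299.9, 301 and 295 CPM in KMT2D KO. All 3 KMT2D KO libraries lay below all 3 KMT2D WT libraries, but the difference was small: the log2 fold change was -0.08 (95% interval -0.18 to 0.01) and the gene was not called (edgeR adjusted p = 0.12). Measured against its 40 nearest tested genes, whose median was 0.09, it was called lower (-0.17, adjusted p = 0.0047).

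The balance between the NADP-dependent enzymes was read as a ratio within each library. Per kilobase of exon, the Idh2 level was 0.205, 0.203 and 0.187 of the Idh1 level in KMT2D WT, and 0.878, 0.879 and 0.881 of it in KMT2D KO. The ratio was higher in 3 of 3 KMT2D KO libraries, by 2.15 on the log2 scale. An exact two-sided permutation test gave p = 0.10, which is the smallest value that 3 against 3 libraries allow, and 0.10 after adjustment over 6 ratios. Idh2 made up 8.81% ± 0.436 of the summed level of the 5 isocitrate dehydrogenase genes in KMT2D WT and 31.1% ± 0.352 in KMT2D KO (SD, n = 3), while Idh1 went from 44.5% to 35.4%. The summed level of the 5 genes was 292 ± 2.41 and 346 ± 7.21 CPM per kilobase.

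**Figure D2:**
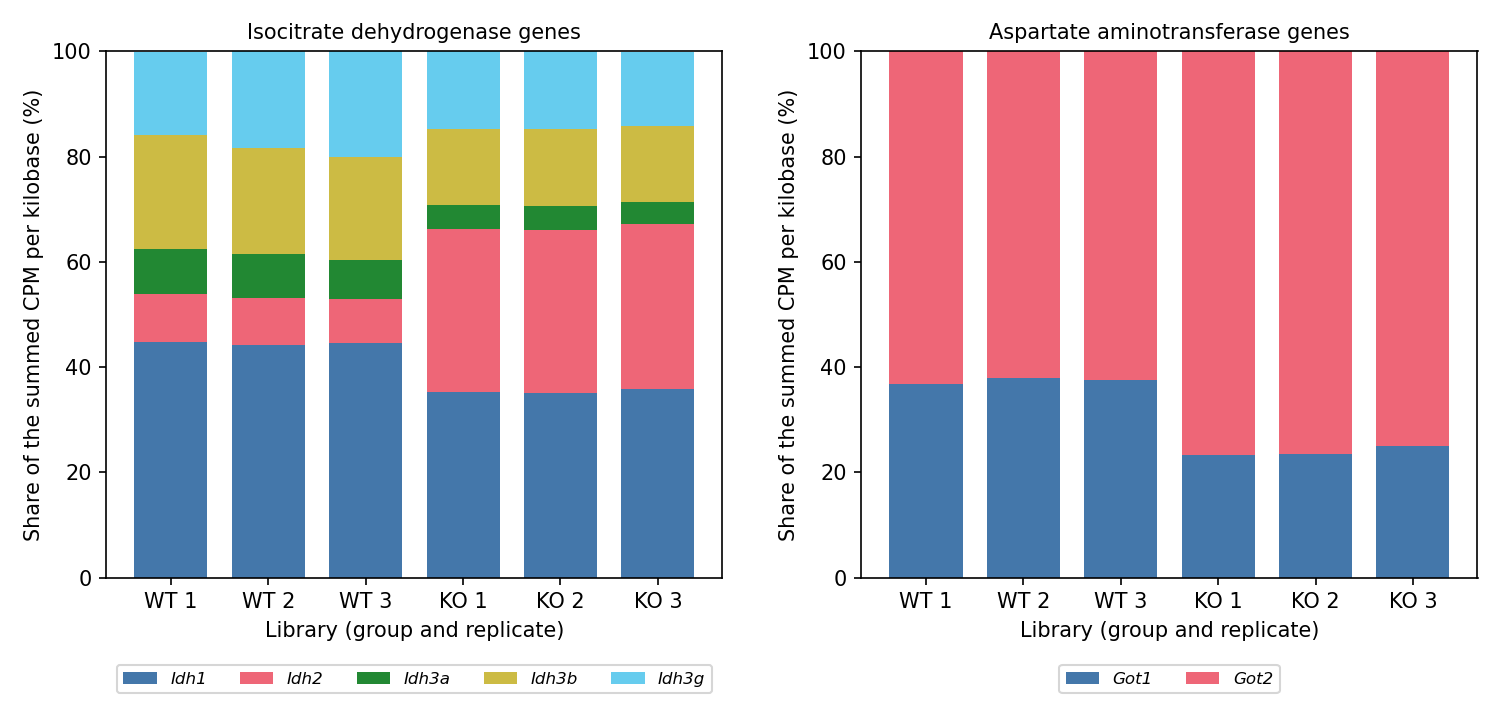
Share of each gene in the summed CPM per kilobase of its family, in percent, with 1 bar per library (3 KMT2D WT, 3 KMT2D KO). The Idh2 share is 8.32% to 9.15% in the KMT2D WT bars and 30.9% to 31.5% in the KMT2D KO bars, and the mean Got1 share is 37.5% and 24.0%.

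None of the 3 subunit genes of the NAD-dependent enzyme was called higher. Idh3a (chromosome 9, 54434318 to 54452469), the catalytic subunit, gave 60.2, 58.8 and 52.0 CPM in KMT2D WT and 39.6, 38.5 and 33.2 CPM in KMT2D KO. The groups did not overlap, and the third library was the lowest in each. The means were 57.0 ± 4.37 and 37.1 ± 3.41 CPM, which is -0.62 as log2 fold change (SE 0.08, edgeR adjusted p = 5.5e-06). The 40 nearest tested genes, from 51078363 to 56747677, had a median of -0.60, beside -0.30 over chromosome 9. Measured against those 40 genes Idh3a differed by -0.02 and was not called (adjusted p = 0.87), so its value lay at the median of its neighbourhood.

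Idh3b (chromosome 2, 130105045 to 130110187), a regulatory subunit, gave 97.0, 89.2 and 85.7 CPM in KMT2D WT and 76.0, 78.9 and 74.7 CPM in KMT2D KO. All KMT2D KO libraries were lower, by a modest amount (log2 fold change -0.24, SE 0.06, edgeR adjusted p = 0.0021). Exons of Idh3b overlap exons of Nop56 in the annotation, so its counts may miss shared fragments. Idh3g (chromosome X, 71024302 to 71032236), the other regulatory subunit, gave 62.3, 71.6 and 77.5 CPM in KMT2D WT and 68.6, 68.7 and 63.3 CPM in KMT2D KO. The groups overlapped and the gene was not called (-0.07, 95% interval -0.22 to 0.07, adjusted p = 0.38). The median was 0.19 over chromosome X and 0.40 over its 40 nearest tested genes. Measured against these, Idh3g was called lower (-0.26, adjusted p = 0.0065, and -0.48, adjusted p = 5.0e-05). Without KMT2D WT replicate 1, the lowest of its group, it was also called lower (-0.15, adjusted p = 0.049). Leaving out KMT2D WT replicate 3, the highest, gave 0.0013.

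Within the subunits, Idh3a was the scarcest per kilobase in both groups, at 23.7 in KMT2D WT and 15.4 CPM per kilobase in KMT2D KO. Idh3b reached 59.6 and 50.4 CPM per kilobase and Idh3g 53.0 and 50.2 CPM per kilobase. The level of Idh3b was 2.55, 2.40 and 2.60 times that of Idh3a in KMT2D WT and 3.04, 3.25 and 3.56 times in KMT2D KO. The Idh3g to Idh3a ratio was 1.87, 2.20 and 2.69 in KMT2D WT and 3.13, 3.23 and 3.44 in KMT2D KO. Both ratios were higher in 3 of 3 KMT2D KO libraries (exact permutation p = 0.10 and adjusted 0.10 for each, the smallest possible).

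Glul (chromosome 1, 155747059 to 155756853), glutamine synthetase, fell the most of the 9 genes. It gave 214, 206 and 204 CPM in KMT2D WT and 86.5, 80.9 and 88.8 CPM in KMT2D KO. The groups were far apart, with the highest KMT2D KO library well under the lowest KMT2D WT library. Group means of 208 ± 4.91 and 85.4 ± 4.09 CPM (SD, n = 3) made a 2.44-fold lower level (log2 fold change -1.29, SE 0.05, edgeR adjusted p = 2.2e-11). The median of chromosome 1 was -0.06 and that of the 40 nearest tested genes 0.36, so the direction was opposite to the neighbourhood. The microRNA gene Mir8114 overlaps a Glul exon.

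Because glutamine synthetase is abundant in astrocytes and the labels' extraction protocol names cerebellar tissue, brain markers were read beside Glul. The 15 astrocyte and cerebellum markers summed to 12.6 to 15.3 CPM in KMT2D WT and to 8.22 to 9.57 CPM in KMT2D KO. Of the 6 that could be tested, 3 were higher, 2 lower and 1 not called, where 71.0% of all tested genes were called. The 2 lower ones were the most abundant in KMT2D WT, Slc1a2 (6.47 and 0.884 CPM, log2 fold change -2.86) and S100b (4.47 and 0.181 CPM, -4.60). The 3 higher ones were Cbln3 (0.279 and 2.35 CPM, 3.05), Syt1 (0.415 and 1.73 CPM, 2.06) and Mbp (0.901 and 2.54 CPM, 1.48). In KMT2D KO each of these 3 lay above both Slc1a2 and S100b. Gfap reached at most 0.479 CPM, Aqp4 0.244 CPM and Gabra6 0.0376 CPM in any library. The part of these markers in the Glul result was not tested.

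Glud1 (chromosome 14, 35123913 to 35158219), glutamate dehydrogenase, gave 271, 275 and 267 CPM in KMT2D WT and 220, 227 and 223 CPM in KMT2D KO. The groups did not overlap and the fall was modest (means 271 ± 3.86 and 223 ± 3.80 CPM, log2 fold change -0.28, SE 0.05, edgeR adjusted p = 1.1e-04). Measured against its 40 nearest tested genes, whose median was -0.38, its direction turned to 0.10 and it was not called (adjusted p = 0.072). A pseudogene, Glud-ps, is annotated in RefSeq, so Glud1 counts may miss fragments that map to both.

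The Glul to Glud1 ratio per kilobase was 0.886, 0.846 and 0.861 in KMT2D WT and 0.443, 0.401 and 0.449 in KMT2D KO, a difference of -1.01 on the log2 scale. It was lower in 3 of 3 KMT2D KO libraries (exact permutation p = 0.10, adjusted 0.10).

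Of the aspartate aminotransferase genes, the cytosolic one fell and the mitochondrial one was not called. Got1 (chromosome 19, 43574243 to 43599095), the cytosolic enzyme, gave 68.1, 68.8 and 67.3 CPM in KMT2D WT and 34.9, 35.8 and 37.5 CPM in KMT2D KO. The libraries of each group lay close together and the groups did not overlap (means 68.1 ± 0.780 and 36.1 ± 1.31 CPM, log2 fold change -0.92, SE 0.06, edgeR adjusted p = 2.8e-09). Its 40 nearest tested genes had a median of 0.04.

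Got2 (chromosome 8, 98388037 to 98412265), the mitochondrial enzyme, gave 133, 129 and 127 CPM in KMT2D WT and 131, 133 and 128 CPM in KMT2D KO. The groups overlapped, with a log2 fold change of 0.01 (95% interval -0.09 to 0.11, edgeR adjusted p = 0.88). The median over chromosome 8 was 0.21, and measured against it Got2 was called lower (-0.20, adjusted p = 0.0026). A pseudogene, Got2-ps1, is annotated in RefSeq. The Got2 to Got1 ratio per kilobase was 1.71, 1.64 and 1.66 in KMT2D WT and 3.28, 3.25 and 2.99 in KMT2D KO, higher in 3 of 3 libraries by 0.93 on the log2 scale (exact permutation p = 0.10, adjusted 0.10).

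**Figure D3:**
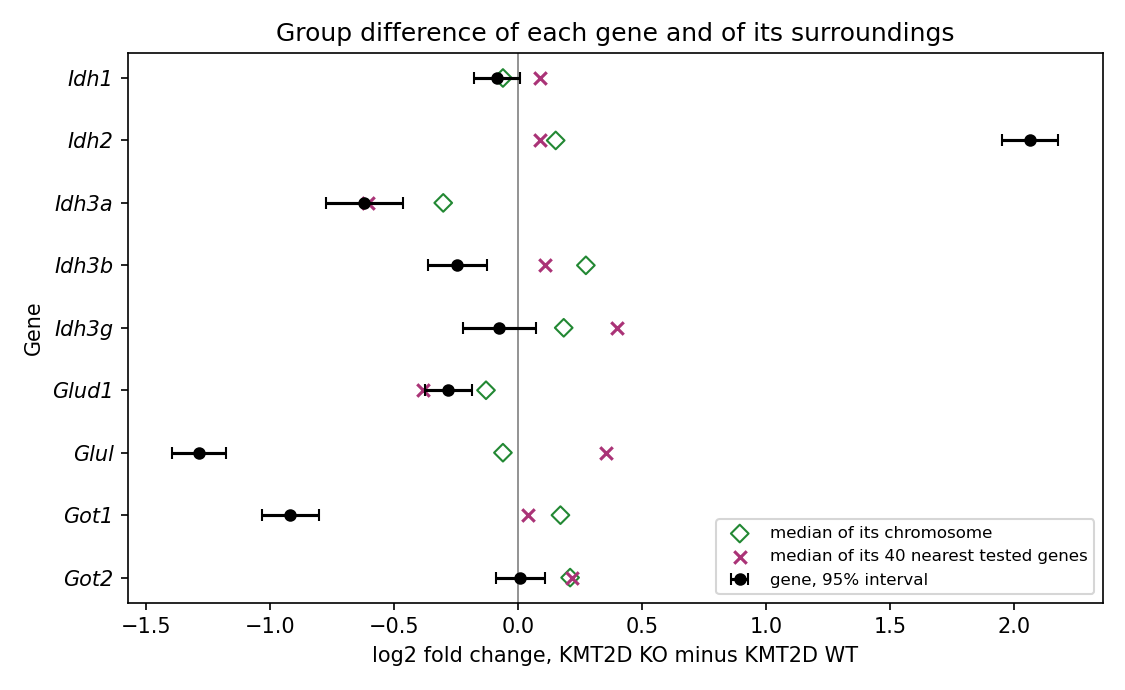
Log2 fold change of each gene with its 95% interval (black), beside the median of all tested genes of its chromosome (green diamonds) and of its 40 nearest tested genes (purple crosses). Idh2 (2.07), Glul (-1.29) and Got1 (-0.92) lie far from both medians, while Idh3a (-0.62) lies on the median of its neighbours (-0.60).

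By level per kilobase, the order of the genes changed mainly through Idh2 and Glul. In KMT2D WT the order was Idh1 (130 CPM per kilobase), Glud1 (85.8), Glul (74.1), Idh3b (59.6), Got2 (55.3), Idh3g (53.0), Got1 (33.1), Idh2 (25.7) and Idh3a (23.7). Neighbours whose libraries overlapped were Idh3b and Got2, Got2 and Idh3g, and Idh2 and Idh3a. In KMT2D KO, Idh2 stood second at 108 CPM per kilobase, after Idh1 (123) and before Glud1 (70.7). Glul stood seventh at 30.4 CPM per kilobase, and Idh3b and Idh3g were the neighbours that overlapped.

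Over the 6 libraries, the genes whose centred log2 CPM lay nearest to Idh2 were Enpp2 (root mean square difference 0.0255), Hibadh (0.0329) and Tapbp (0.0374). They were picked for likeness to Idh2, so their similar rises (2.05, 2.11 and 2.05 on the log2 scale) follow from the choice. Nearest to Got2, the gene with the smallest change, were Thrap3 (0.0173), Hfe (0.0181) and Sec23b (0.0202).

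In the lists of neighbouring enzymes, counts of calls are to be read against all tested genes, of which 71.0% were called, 35.4% higher and 35.5% lower. Genes called in both directions are thus what the whole table shows, and the values of single genes are given as a description. Of 26 enzymes that make or use glutamine or glutamate, 12 were called higher, 12 lower and 2 neither way (median -0.11). Gfpt2, which spends glutamine on hexosamine synthesis, rose from 5.70 to 16.3 CPM (log2 fold change 1.52, adjusted p = 1.6e-08), and the mitochondrial branched-chain aminotransferase gene Bcat2 from 15.9 to 30.9 CPM (0.96, adjusted p = 4.8e-08). Its cytosolic counterpart Bcat1, which also passes amino groups to 2-oxoglutarate, gave 114, 125 and 114 CPM in KMT2D WT and 34.1, 34.6 and 34.3 CPM in KMT2D KO (-1.78, adjusted p = 1.2e-12). The proline oxidation gene Prodh fell from 2.14 to 0.256 CPM (-3.05).

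Of 18 glutamine and glutamate transporter genes, 14 were tested, 7 rose, 5 fell and 2 were not called (median 0.16). The neutral amino acid transporter genes Slc38a2 (261 to 572 CPM, 1.13) and Slc1a5 (18.2 to 36.5 CPM, 1.00) rose. Slc7a8, a neutral amino acid exchanger, fell from 4.22 to 0.255 CPM (-4.02) and the glutamate transporter gene Slc1a2 from 6.47 to 0.884 CPM (-2.86).

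The malate-aspartate shuttle, which carries reducing equivalents into mitochondria and includes Got1 and Got2, had 4 of 7 genes higher, 2 lower and 1 not called (median 0.17). Slc25a13, an aspartate-glutamate carrier, rose from 6.62 to 12.3 CPM (0.90) and the cytosolic malate dehydrogenase gene Mdh1 from 97.4 to 125 CPM (0.35), while mitochondrial Mdh2 fell from 172 to 88.2 CPM (-0.96). Only 2 of these genes were called higher with library size as the scale or against chromosome medians. In the malate dehydrogenase pair it was the mitochondrial gene that fell, and in the aspartate aminotransferase pair the cytosolic one.

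Of the 6 genes for making, isomerising or exporting citrate, 5 were tested. Aco1, cytosolic aconitase, rose (43.9 to 58.4 CPM, 0.41), and Acly, ATP citrate lyase, fell (281 to 198 CPM, -0.51). The citrate carrier gene Slc25a1 was called higher (0.19, adjusted p = 0.046), but not without KMT2D WT replicates 1 or 3 (0.19 and 0.11) or KMT2D KO replicates 1 or 2 (0.19 and 0.18). The list median was 0.03.

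Beyond 2-oxoglutarate, 4 of 8 genes rose, 3 fell and 1 was not called (median 0.69). D2hgdh, which oxidises D-2-hydroxyglutarate to 2-oxoglutarate, gave 3.54, 4.50 and 3.24 CPM in KMT2D WT and 19.6, 19.4 and 20.4 CPM in KMT2D KO (2.39, adjusted p = 1.9e-10). Adhfe1, a transhydrogenase that forms D-2-hydroxyglutarate from 2-oxoglutarate, rose from 2.68 to 14.2 CPM (2.40, adjusted p = 2.0e-09). The subunits of the 2-oxoglutarate dehydrogenase complex Ogdh (295 to 221 CPM, -0.42) and Dld (106 to 77.8 CPM, -0.44) fell.

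NADPH is also made by other enzymes than Idh1 and Idh2. Of 12 genes listed for its supply, 3 rose, 8 fell and 1 was not called (median -0.59). Not all of them make NADPH directly, as with the NAD kinase gene Nadk (-0.67), so the count and median are not of NADPH producers alone. The mitochondrial malic enzyme gene Me3 gave 1.68, 2.62 and 2.28 CPM in KMT2D WT and 27.3, 27.3 and 28.2 CPM in KMT2D KO (3.65, adjusted p = 3.1e-12). The cytosolic malic enzyme gene Me1 fell from 86.5 to 33.6 CPM (-1.37, adjusted p = 2.9e-11). For the formyltetrahydrofolate dehydrogenases, cytosolic Aldh1l1 rose from 2.99 to 108 CPM (5.16, adjusted p = 9.4e-15) and mitochondrial Aldh1l2 fell from 58.9 to 26.7 CPM (-1.15, adjusted p = 7.3e-09).

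**Figure D4:**
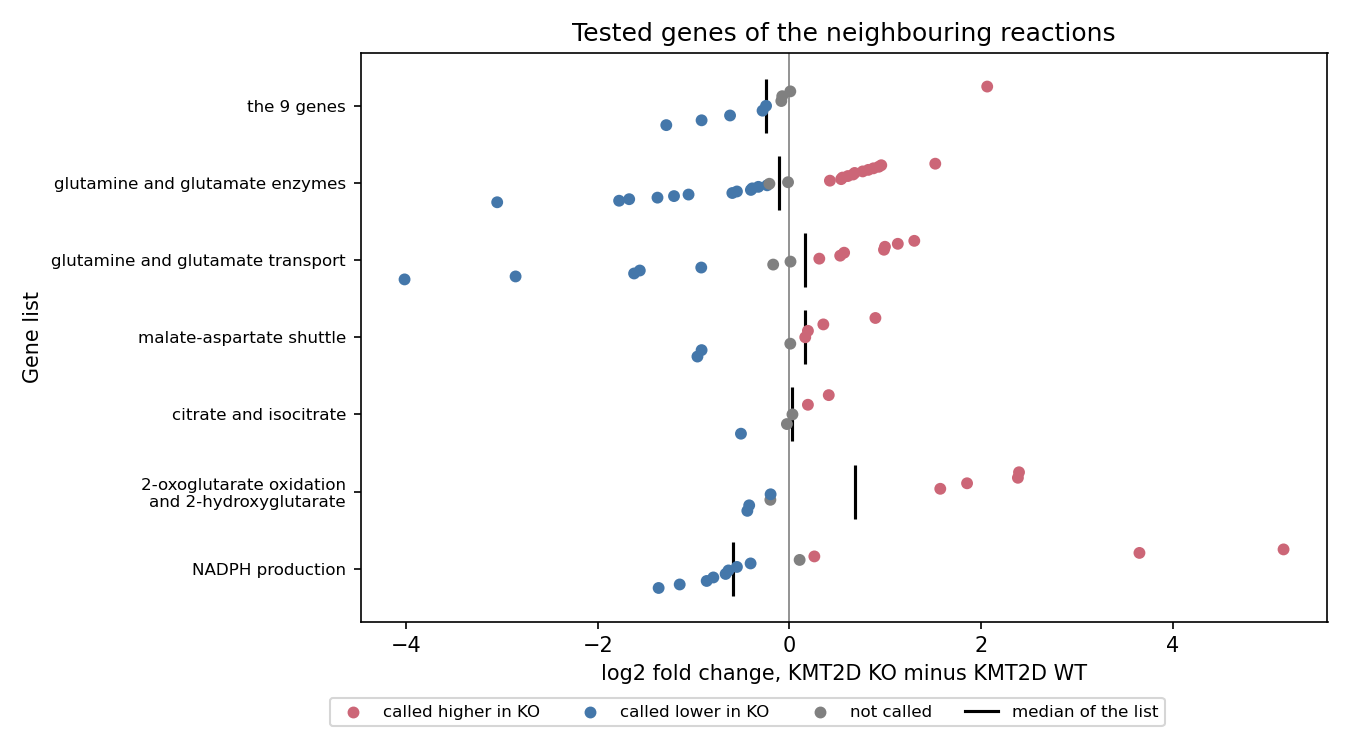
Log2 fold change of every tested gene in the 9-gene set and in 6 lists of neighbouring reactions, with 1 point per gene, coloured by its call, and the list median as a black line. As among all tested genes, calls go in both directions, and medians run from -0.59 (NADPH production) to 0.69 (2-oxoglutarate oxidation and 2-hydroxyglutarate).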

How the data were processed

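The authors deposited whole-number fragment counts per gene. Exons of an mm9 annotation were counted with featureCounts 1.5.2, per the file headers. The recorded command set no strand option and no option for fragments that overlap several genes or map to several places, which the tool leaves out by default. STAR and HTSeq are named in the submitters' processing notes without roles. CPM used TMM-scaled library sizes (factors 0.957 to 1.044), and CPM per kilobase used the exonic length deposited in the same files. The test was the quasi-likelihood F test in edgeR 4.0.16 (R 4.3.3), with a group-only model, the default low-count filter and Benjamini-Hochberg adjustment over 14579 genes. The standard error is the log2 fold change divided by the square root of F, and 95% intervals are normal. The code was tested on simulated data.

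Within a group, libraries differed beyond sampling noise (chi-square per degree of freedom at least 11.1), so all 6 entered as separate libraries. The 9 genes, 6 pathway lists and 6 marker lists (142 genes, all found) were chosen with earlier results of these data known. The text names the 9 genes, Kmt2d, up to 2 called rises and 2 called falls per pathway list with at least 1 CPM, the 2 most abundant genes of each marker list, and the 3 nearest patterns for the genes of largest and smallest change. Other markers were picked after their values were seen, and 1 of the 6 ratios tested is not reported here. Alternatives were RLE factors, library size, DESeq2 1.42.0, limma voom 3.58.1, other filters, a replicate block, centring on chromosome medians, leaving out each library and, chosen after seeing the data, centring on the 40 nearest tested genes.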

Additional observations from a re-analysis of the deposited data

How the results depend on the processing

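Idh2, Glul, Got1 and Idh3b kept their direction and their call under all 14 alternatives and the 1 chosen after seeing the data, with log2 fold changes of 1.91 to 2.10, -1.64 to -1.23, -1.09 to -0.88 and -0.52 to -0.19. Idh3a and Glud1 did so under all but the centring on the 40 nearest tested genes (-0.016 and 0.10), where Got2 (-0.21), Idh1 (-0.17) and Idh3g (-0.48) were called lower. Centring on chromosome medians gave called values of -0.20 for Got2 and -0.26 for Idh3g. Library size as the scale moved the median of all tested genes by -0.11, and Idh1 (-0.19) and Idh3g (-0.19) were called lower with it. Leaving out single libraries gave -0.15 to 0.0013 for Idh3g, the call being made without KMT2D WT replicate 1. In the malate-aspartate list, 2 in place of 4 genes were called higher with library size, chromosome centring or neighbour centring. In the citrate list, 1 in place of 2 was called higher with library size, with a filter at a mean of 1 CPM and without single libraries (range 1 to 2), and 2 in place of 1 were called lower with library size or neighbour centring; the cause was not tested.

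Over all tested genes, deviations from the group mean correlated at 0.0149, 0.0095 and 0.0085 between same-numbered libraries. Between differently numbered ones the values ran from -0.0171 to 0.0071. Correlations this small, from 3 libraries a group, cannot decide whether the replicate numbers pair the samples. With the replicate block 10368 in place of 10345 genes were called, and none of the 9 genes changed its call. Ratios between members kept their direction when each library was left out. The groups did not overlap in any of these ratios, so this outcome could not have differed. At 3 libraries a group, exact tests could not go below 0.10.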
